A study of Mus musculus with 2 samples.

Results

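The genes described here are 39 transcription factors that mark territories of the mouse brain from the front of the forebrain to the hindbrain, out of 45578 genes in the table of footprint counts. They are a list of gene names, set by what each factor is known to mark, and Hox genes were left out of it. The list and its grouping were chosen with earlier results of these data known. By the territory in which each is best known, 20 were grouped as telencephalic, 6 as diencephalic, 7 as mid-hindbrain and 6 as caudal. The telencephalic genes were divided further into 12 pallial (cortical) and 8 subpallial or striatal ones. All 39 had footprints in both libraries, and 36 had at least 10 in each.

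The assay was ribosome profiling of polysomes, in which the stretches of mRNA protected by translating ribosomes are sequenced and counted as footprints. The material was the brain of control mice at postnatal day 5, in a single group of 2 biological replicates. Both animals were Smn+/-; SMN2tg/0, that is heterozygous for the mouse Smn gene and carrying a human SMN2 transgene, on an FVB congenic background. This genotype is the unaffected control of a mouse line used for spinal muscular atrophy, and no mouse without it was part of the samples analysed here.

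Early in development the neural tube is divided into forebrain, midbrain and hindbrain by overlapping fields of homeodomain, LIM, paired-box, basic helix-loop-helix and other DNA-binding proteins. Each field restricts which neurons can form there, and many of the same proteins are later kept in postmitotic neurons to hold their identity. A factor that is restricted to one territory can therefore serve as a marker of that territory in a lysate of the brain. Many are reused elsewhere, for example Meis2 and Foxp1 in the striatum, and the grouping is a simplification.

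Replicate 1 held 1866831 footprints and replicate 2 held 5261878, a ratio of 2.82, so values of replicate 2 carry the smaller counting error. Across all genes the biological coefficient of variation between the libraries was 0.167. Levels are given as CPM, the counts per 1000000 footprints of the library, with exact Clopper-Pearson 95% intervals that cover counting error only. Ratios are given as log2 of replicate 2 over replicate 1 after TMM scaling (trimmed mean of M values), so that a positive value is higher in replicate 2. Each gene with a mean count of at least 10 was compared between the libraries by a two-sided exact binomial test, and it was called at a Benjamini-Hochberg adjusted p under 0.05 over all 16427 genes tested. Such a test compares these libraries and no condition. Where a call was made, the libraries differed by more than the counting error of independent counts, while the spread among further brains is unknown. Fragments counted more than once, as on several transcripts of a gene, would make the intervals and p-values too small. Whether this occurred is not known.

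The 39 genes took 3629 footprints in replicate 1 and 10691 in replicate 2, which is 0.194% and 0.203% of the libraries. Of the 38 that could be tested, 13 were called between the libraries, or 34.2%, beside 17.4% of all tested genes. Higher in replicate 2 were 5 of the 38 (13.2%), beside 5.95% of all tested genes: Cux1, Pax2, Meis1, Ebf1 and Ebf3. Lower in replicate 2 were 8 (21.1%), beside 11.5% of all tested genes: Lhx2, Tbr1, Bcl11b, Neurod2, Neurod6, Dlx1, Six3 and Lhx9. Of the 8 lower ones, 6 were telencephalic and 2 diencephalic, and 3 of the 5 higher ones were caudal. The median absolute log2 ratio was 0.41 over the 38 genes and 0.29 over all tested genes. In a lysate of the brain, fewer cells of a type and fewer footprints per cell cannot be told apart.

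Scaling by library totals in place of TMM moved the log2 ratios by 0.13, and the median over all genes from 0.0056 to 0.13. Under it 9 of the 38 genes were called, beside 19.0% of all tested genes. Of these 6 were higher in replicate 2, beside 11.5% of all, and 3 were lower, beside 7.47% of all. When edgeR's exact test with the dispersion shared by all genes was used in its place, 0 of the 38 were called, beside 0.067% of all tested genes, and the lowest adjusted p was 1. At an unadjusted p under 0.05, 4 of the 38 (10.5%) passed that edgeR test, beside 4.38% of all tested genes, and 18 (47.4%) passed the exact binomial test, beside 27.7%. That dispersion comes from these very libraries, so the edgeR test leaves few calls by construction.

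**Figure D1:**
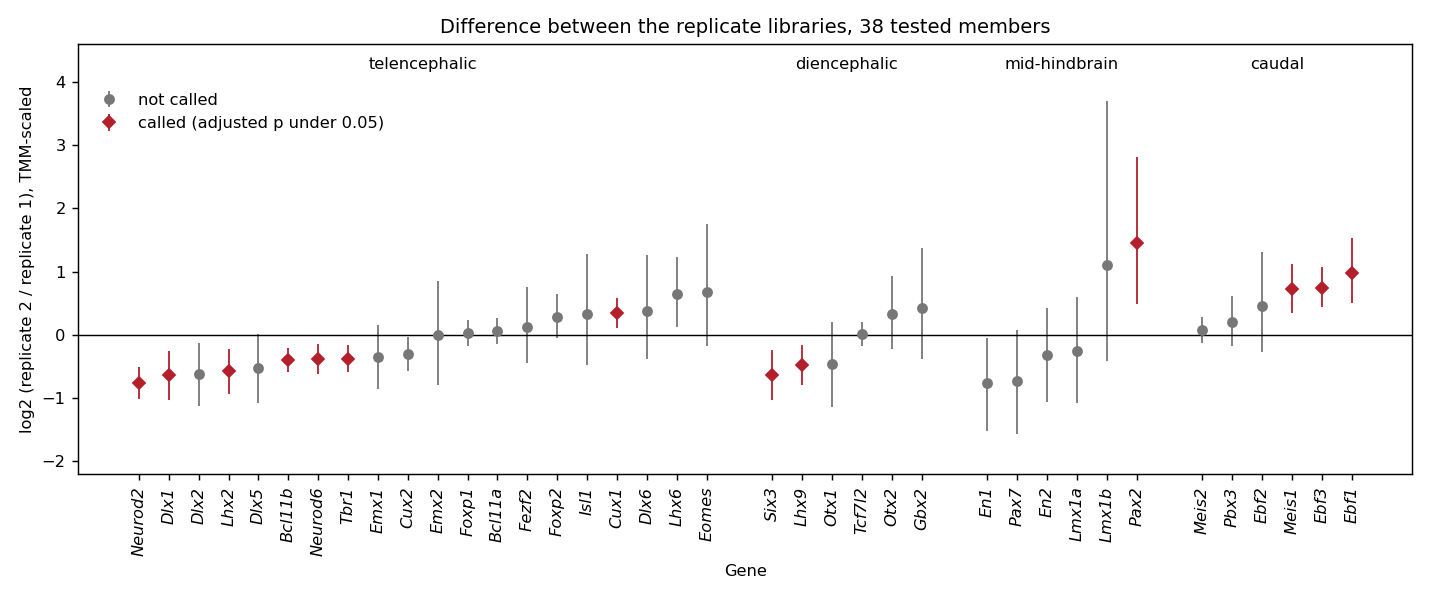
The points show the log2 ratio of replicate 2 over replicate 1 after TMM scaling for the 38 tested genes, ordered within each region group, with exact 95% intervals as lines. Red diamonds are the 13 called genes, which lie below 0 for 8 genes of the telencephalic and diencephalic groups and above 0 for Cux1, Pax2, Meis1, Ebf1 and Ebf3.

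Upstream sequences are shown for 4 of the called genes, chosen after their values were seen because they pair paralogues that differed in the same direction: Ebf1 and Ebf3, which were higher in replicate 2, and Neurod2 and Neurod6, which were lower. Each run is the 250 bases before the transcription start, 5′ to 3′ on the strand of the gene, from RefSeq on assembly GRCm38.p6, with CG dinucleotides in capitals. For Ebf1 the first of its listed starts is shown.
Ebf1: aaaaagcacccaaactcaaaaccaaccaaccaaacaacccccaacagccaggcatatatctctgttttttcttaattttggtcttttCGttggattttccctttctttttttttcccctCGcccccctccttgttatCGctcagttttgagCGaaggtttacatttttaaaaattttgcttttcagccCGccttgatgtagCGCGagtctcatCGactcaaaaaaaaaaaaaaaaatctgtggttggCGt
Ebf3: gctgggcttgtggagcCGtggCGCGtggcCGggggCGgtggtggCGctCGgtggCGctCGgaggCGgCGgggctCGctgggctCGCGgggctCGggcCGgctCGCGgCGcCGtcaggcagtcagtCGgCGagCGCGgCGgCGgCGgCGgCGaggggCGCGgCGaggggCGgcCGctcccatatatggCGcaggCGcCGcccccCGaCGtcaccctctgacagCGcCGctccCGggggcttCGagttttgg
Neurod2: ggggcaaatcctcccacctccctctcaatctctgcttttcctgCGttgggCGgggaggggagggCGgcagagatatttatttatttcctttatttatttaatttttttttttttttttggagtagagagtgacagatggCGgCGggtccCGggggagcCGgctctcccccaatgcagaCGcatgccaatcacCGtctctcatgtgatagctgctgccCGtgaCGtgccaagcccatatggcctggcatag
Neurod6: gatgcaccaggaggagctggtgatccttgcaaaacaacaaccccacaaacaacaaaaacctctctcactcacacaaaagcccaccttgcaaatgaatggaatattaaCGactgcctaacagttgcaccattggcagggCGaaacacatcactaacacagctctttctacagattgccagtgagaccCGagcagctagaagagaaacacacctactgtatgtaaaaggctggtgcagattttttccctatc

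These windows lie at chr11:44617850-44618099 on the plus strand for Ebf1 and at chr7:137314446-137314695 on the minus strand for Ebf3. Those of Neurod2 and Neurod6 lie at chr11:98329646-98329895 and chr6:55681264-55681513, both on the minus strand. The number of CG dinucleotides differed widely within each pair, with 9 for Ebf1 and 43 for Ebf3, and 11 for Neurod2 and 3 for Neurod6. Within both pairs shown, genes that shared a direction between the libraries thus had windows with unlike numbers of CG. The GC content was 40% and 80% for Ebf1 and Ebf3, and 52.8% and 46% for Neurod2 and Neurod6. At the other listed start of Ebf1 the window had 14 CG dinucleotides and 52% GC. The RefSeq table held 45 such windows for 32 of the 39 genes, and none for Foxp2, Ebf2, En2, Otx1, Dlx6, Dlx5 and Pbx3.

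Over the 45 windows the median was 14 CG dinucleotides, beside 6 over all 32851 windows of the table, and 38 of the 45 lay above that table median, which 46.3% of all windows did. The median GC content was 59.6%, beside 52.4%. The letters TAATTA, a palindromic core that many homeodomain proteins bind, occurred on either strand in 4 windows, or 8.89%, beside 4.84% of all. Those 4 windows belonged to Foxp1, Tbr1 and Otx2, the last with 2 windows. TGACAG, a core bound by Meis-type homeodomains, occurred in 8 (17.8%), beside 15.9% of all, and TATAAA in 4 (8.89%), beside 12.4%. None of these motifs contains another, and a match is a description of the sequence alone.

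Summed over each territory, the telencephalic genes were slightly lower and the caudal genes higher in replicate 2. The 20 telencephalic genes summed to 1275 CPM in replicate 1 and 1232 in replicate 2 (1254 ± 30.4, SD, n = 2), at a log2 ratio of -0.18 (95% interval -0.24 to -0.11). The 6 caudal genes summed to 301 and 435 CPM (368 ± 95.1, SD, n = 2), at a log2 ratio of 0.41 (0.27 to 0.54). Between them the diencephalic genes gave 314 and 309.8 CPM (312 ± 2.92, SD, n = 2) at -0.15 (-0.28 to -0.0066), and the mid-hindbrain genes gave 54.1 and 54.5 CPM (54.3 ± 0.312, SD, n = 2) at -0.11 (-0.45 to 0.23). With library totals the telencephalic ratio shrank to -0.049 and the caudal one grew to 0.53, while the diencephalic one was -0.019 and the mid-hindbrain one turned to 0.012. These intervals cover counting error, and no test was run over a group of genes. The groups were made with earlier results of these data known, so their differences are a description only.

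The median log2 ratio of the tested genes was -0.16 for the telencephalic, -0.22 for the diencephalic, -0.29 for the mid-hindbrain and 0.59 for the caudal group, beside 0.0056 for all tested genes. All 6 caudal genes had ratios above 0 under both scalings, against 9 of 20 telencephalic, 3 of 6 diencephalic and 2 of 6 mid-hindbrain genes under TMM. Within the telencephalon the pallial genes had a median of -0.33 and the subpallial or striatal genes one of 0.16. On the highest transcript of each gene the telencephalic median was 0.023, while the summed ratio was -0.25. With only the 3 diencephalic genes of 1 main territory the median was 0.017, which is the ratio of Tcf7l2, while the summed ratio was -0.089. The sign was thus lost for these medians and kept for the sums.

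Ratios of territories within a library use no scaling. Telencephalic footprints were 23.6 times the mid-hindbrain ones in replicate 1 (95% interval 19.3 to 29.1) and 22.6 times in replicate 2 (20.1 to 25.5), and these intervals overlapped. The telencephalic to caudal ratio was 4.24 (3.87 to 4.66) in replicate 1 and 2.83 (2.70 to 2.97) in replicate 2, without overlap. Telencephalic to diencephalic footprints stood at 4.06 and 3.98, which differed by less than their intervals. Pallial footprints were 3.05 times the subpallial or striatal ones in replicate 1 (2.78 to 3.35) and 2.63 times in replicate 2 (2.49 to 2.78), where the intervals met at their ends. These sums depend on the number and length of the genes in a group, and they set no level of one territory against another.

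**Figure D2:**
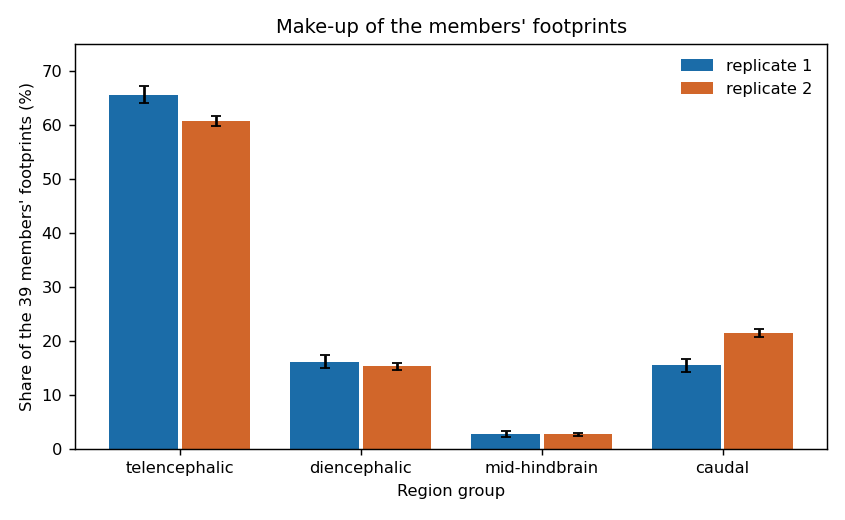
Bars show the share of the 39 genes' footprints (%) taken by each region group in each library, with exact 95% binomial intervals as error bars. The telencephalic share was 65.6% in replicate 1 and 60.7% in replicate 2, the caudal share 15.5% and 21.4%, the diencephalic share 16.1% and 15.2%, and the mid-hindbrain share 2.78% and 2.68%.

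Between genes, levels were compared as CPM per kb of the longest annotated coding sequence. The medians of the groups were 25.3 CPM per kb for the telencephalic, 30.3 for the diencephalic, 7.18 for the mid-hindbrain and 34.1 for the caudal genes. Over the 13338 genes with such a value the median was 23.4, and 20 of the 39 genes lay above it. Meis2 was highest at 108 CPM per kb, at percentile 85.8 of all genes, and Phox2a lowest at 1.31, at percentile 1.63. All 7 mid-hindbrain genes lay below the median of all genes.

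**Figure D3:**
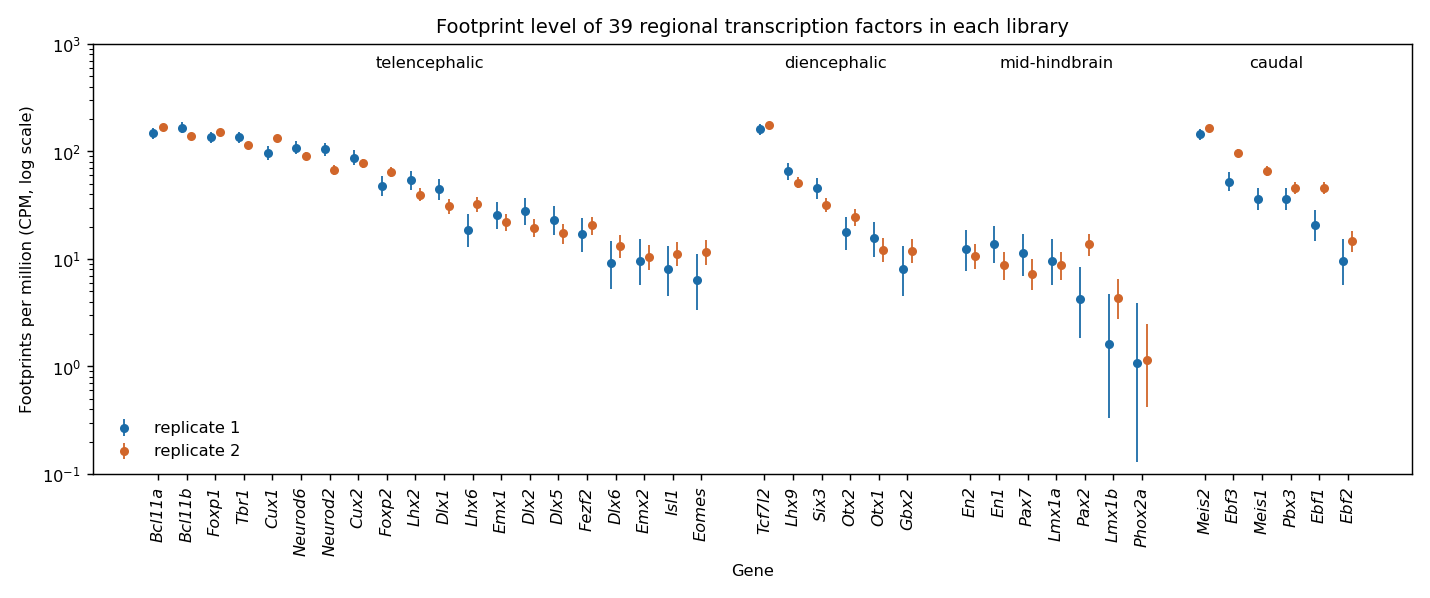
Points give the footprint level (CPM, log scale) of each of the 39 genes in replicate 1 (blue) and replicate 2 (orange), with exact 95% Clopper-Pearson intervals as lines, ordered by level within each region group. Phox2a was lowest at 1.07 and 1.14 CPM, the highest gene was Bcl11b in replicate 1 at 167 CPM and Tcf7l2 in replicate 2 at 178 CPM, and the intervals are widest for the mid-hindbrain genes.

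Among the 12 pallial genes, 5 were called lower and 1 higher in replicate 2, beside 11.5% and 5.95% of all tested genes. Neurod6, a basic helix-loop-helix factor of cortical glutamatergic neurons, gave the highest density of the telencephalic group, at 107 and 89.6 CPM per kb in replicates 1 and 2. Its 203 and 478 footprints were 109 and 90.8 CPM, the higher level being in replicate 1 with overlapping intervals. The log2 ratio was -0.38 (exact binomial adjusted p = 0.0142), and the call was lost with library totals (adjusted p = 0.124), on the highest transcripts (0.0922) and after the density trend was removed (0.0684).

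Neurod2, its paralogue in the same neurons, is also found elsewhere and was not counted among the genes of 1 main territory. It had the second highest mean density of the group, with 90.7 and 58.4 CPM per kb, although Foxp1 and Bcl11a were above it in replicate 2. Neurod2 had 195 footprints in replicate 1 and 354 in replicate 2, or 104 CPM (90.3 to 120.2) and 67.3 CPM (60.5 to 74.7). Replicate 1 was higher and the intervals were separate. The log2 ratio of -0.76 (95% interval -1.02 to -0.50) had an exact binomial adjusted p of 2.98e-07. It was called under each of the 7 alternatives run with that test, at log2 ratios from -0.76 to -0.63, and by the edgeR exact test it had an unadjusted p of 0.0392.

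Tbr1, a T-box factor of deep-layer corticothalamic neurons, had 253 and 600 footprints, or 136 and 114 CPM. Replicate 1 was the higher library, and the intervals (119 to 153 and 105 to 124) overlapped. Its log2 ratio was -0.37 (exact binomial adjusted p = 0.00666), and it lost the call with library totals (adjusted p = 0.0990) and with its highest transcript alone (0.276). Bcl11b, the zinc-finger factor also called Ctip2 that marks subcerebral projection neurons and striatal medium spiny neurons, had 312 and 728 footprints, or 167 CPM (149 to 187) and 138 CPM (128 to 149). Replicate 1 was again higher, with intervals that just failed to meet. Its log2 ratio was -0.40 (exact binomial adjusted p = 0.000855), and its highest transcript alone gave -0.27 (adjusted p = 0.324).

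Lhx2, a LIM-homeodomain selector of cortical identity, had 101 and 208 footprints, or 54.1 and 39.5 CPM, with replicate 1 above replicate 2. The log2 ratio was -0.57 (exact binomial adjusted p = 0.0101), and -0.45 with library totals (adjusted p = 0.0577). Cux1, a cut-homeodomain factor of upper-layer neurons that is also broadly expressed, went the other way. It had 180 and 702 footprints, or 96.4 CPM (82.8 to 112) and 133 CPM (124 to 144), with replicate 2 higher and separate intervals. Its log2 ratio was 0.34 (exact binomial adjusted p = 0.0285), but it was not called on protein-coding transcripts alone (adjusted p = 0.117), on its highest transcript (0.939) or after the trend with footprint density was removed (0.0831).

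The other 6 pallial genes did not pass the test. Bcl11a, a zinc-finger paralogue of Bcl11b, had 147 and 168 CPM. Cux2, the upper-layer paralogue of Cux1, had 87.8 and 77.5 CPM at a log2 ratio of -0.30 (exact binomial adjusted p = 0.111), opposite in sign to Cux1, and was called only after the density trend was removed (0.0497). The homeodomain factors of cortical progenitors gave 25.7 and 21.9 CPM for Emx1 and 9.64 and 10.5 CPM for Emx2. Fezf2, which specifies subcerebral projection neurons, had 17.1 and 20.5 CPM. Eomes (Tbr2), the T-box factor of intermediate progenitors, had 12 and 61 footprints, or 6.43 and 11.6 CPM, with overlapping intervals and a log2 ratio of 0.68 (exact binomial adjusted p = 0.344). The levels of Emx2 and Eomes rest on few footprints in replicate 1, and their intervals are wide.

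The subpallial genes held 1 call among 8, beside 17.4% of all tested genes. Dlx1, a distal-less homeodomain factor of GABAergic precursors, had 83 and 163 footprints, or 44.5 CPM (35.4 to 55.1) and 31.0 CPM (26.4 to 36.1). Replicate 1 was higher, with intervals that met only at their ends. The log2 ratio was -0.64 (exact binomial adjusted p = 0.0115), and the highest transcript alone gave -0.59 (adjusted p = 0.336). Its neighbour and partner Dlx2 had 27.9 and 19.6 CPM at a similar log2 ratio of -0.62 (exact binomial adjusted p = 0.0614), and it was called only after the density trend was removed (0.0402). Dlx5 and Dlx6, the second linked pair, had 23.0 and 17.3 CPM and 9.11 and 13.1 CPM, neither called.

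Lhx6, the LIM-homeodomain factor of interneurons born in the medial ganglionic eminence, had 35 and 170 footprints, or 18.7 and 32.3 CPM. Replicate 2 was higher and the intervals (13.1 to 26.1 and 27.6 to 37.5) were separate. The log2 ratio of 0.65 did not pass over all genes (exact binomial adjusted p = 0.0626), but did with library totals (0.0179) and with a mean count of at least 50 as the filter (0.0385). Isl1, a LIM-homeodomain factor of striatonigral and cholinergic neurons, had 8.04 and 11.2 CPM. The forkhead factors of striatal neurons, both also cortical, were not called: Foxp1 had 136 and 151 CPM and Foxp2 had 48.2 and 64.2 CPM.

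The diencephalic genes held 2 calls among 6, both lower in replicate 2, beside 11.5% of all tested genes called lower. Tcf7l2, a high-mobility-group factor of Wnt signalling that marks thalamic neurons and is also found in glial cells, had the highest density of the group at 88.5 and 97.8 CPM per kb. Its 301 and 937 footprints were 161 and 178 CPM with overlapping intervals, and the log2 ratio was 0.017 (exact binomial adjusted p = 0.977). Lhx9, a LIM-homeodomain factor of thalamic and other diencephalic neurons, followed at 55.2 and 43.0 CPM per kb. It had 123 and 270 footprints, or 65.9 and 51.3 CPM, the higher level in replicate 1. The log2 ratio was -0.48 (exact binomial adjusted p = 0.0172), and it was not called with library totals (adjusted p = 0.103), on protein-coding transcripts alone (0.324) or on its highest transcript (0.369).

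Six3, a homeodomain factor of the anterior forebrain and the eye field that is later found in striatal neurons, had 85 and 168 footprints, or 45.5 and 31.9 CPM. Replicate 1 was higher, with intervals meeting at their ends (36.4 to 56.3 and 27.3 to 37.1). Its log2 ratio was -0.63 (exact binomial adjusted p = 0.0106), and the call was lost with library totals (adjusted p = 0.0513) and with the highest transcript (0.259). Otx1 and Otx2, orthodenticle factors of forebrain and midbrain, had 15.5 and 12.2 CPM and 17.7 and 24.3 CPM, at log2 ratios of -0.46 and 0.33 that did not pass the test. Gbx2, the homeodomain factor that opposes Otx2 at the midbrain-hindbrain boundary and is kept in the thalamus, had 8.04 and 12.0 CPM and was not called.

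The mid-hindbrain genes were the least abundant and the least precisely measured. En2 and En1, the engrailed homeodomain factors that pattern midbrain and cerebellum, had the highest mean densities of the group, although in replicate 2 Pax2 was above both at 10.9 CPM per kb and Lmx1a above En1. En2 gave 12.6 and 10.9 CPM per kb from 23 and 56 footprints, or 12.3 and 10.6 CPM, at a log2 ratio of -0.32 (exact binomial adjusted p = 0.626). En1 gave 11.5 and 7.25 CPM per kb from 26 and 46 footprints, or 13.9 and 8.74 CPM, at -0.76 (exact binomial adjusted p = 0.119). For both, replicate 1 had the higher level and the intervals overlapped.

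Pax2, a paired-box factor of the isthmus and of cerebellar and spinal inhibitory interneurons, was the one called gene of the group. The group held 6 tested genes, and 17.4% of all tested genes were called. Pax2 had 8 footprints in replicate 1 and 72 in replicate 2, or 4.29 CPM (1.85 to 8.44) and 13.7 CPM (10.7 to 17.2). Replicate 2 was higher and the intervals were separate. The log2 ratio of 1.45 (95% interval 0.49 to 2.81) was the largest among the 38 genes in absolute value, with an exact binomial adjusted p of 0.0131. It was called under each of the 6 alternatives that tested it, and the edgeR exact test gave an unadjusted p of 0.0125.

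The remaining mid-hindbrain genes were not called. Pax7, a paired-box factor of the dorsal midbrain, had 11.2 and 7.22 CPM. Lmx1a, a LIM-homeodomain factor of midbrain dopaminergic neurons and the rhombic lip, had 9.64 and 8.74 CPM. Lmx1b, its paralogue in dopaminergic and serotonergic neurons, had only 3 and 23 footprints, and its log2 ratio of 1.10 had an interval from -0.41 to 3.70. Phox2a, a paired-like homeodomain factor of noradrenergic and cranial motor neurons, had 2 and 6 footprints, or 1.07 CPM (0.130 to 3.87) and 1.14 CPM (0.418 to 2.48), and was not tested. No difference between the libraries was detected for Lmx1b, and its interval is wide.

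The caudal genes held 3 calls among 6, all higher in replicate 2, beside 5.95% of all tested genes called higher. The group joins the TALE homeodomain factors, which act as cofactors of Hox proteins, with the early B-cell factors of the Ebf family, helix-loop-helix proteins of postmitotic neurons. Ebf3 had 98 and 508 footprints, or 52.5 CPM (42.6 to 64.0) and 96.5 CPM (88.3 to 105), and 29.3 and 53.9 CPM per kb, the second highest density of the group. Replicate 2 was higher with separate intervals. Its log2 ratio was 0.75 (95% interval 0.44 to 1.08, exact binomial adjusted p = 1.50e-05).

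Ebf1, also a factor of striatal neurons, had 39 and 240 footprints, or 20.9 CPM (14.9 to 28.6) and 45.6 CPM (40.0 to 51.8), the higher value again in replicate 2 and the intervals apart. The log2 ratio was 0.98 (0.51 to 1.53, exact binomial adjusted p = 0.000309). Both Ebf1 and Ebf3 were called under each of the 7 alternatives run with the binomial test, at log2 ratios from 0.91 to 1.73 and from 0.73 to 1.06. With the edgeR exact test their unadjusted p-values were 0.0176 and 0.0491. Ebf2, the third family member, had 18 and 77 footprints, or 9.64 and 14.6 CPM, at a ratio of 0.46 that did not pass (exact binomial adjusted p = 0.489).

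Meis1, a TALE factor of hindbrain and cerebellar granule cells, had 68 and 346 footprints, or 36.4 CPM (28.3 to 46.2) and 65.8 CPM (59.0 to 73.1). Replicate 2 was the higher library and the intervals were separate. The log2 ratio was 0.72 (exact binomial adjusted p = 0.00104), and the highest transcript alone gave 0.55 (adjusted p = 0.601). Meis2, the paralogue that is also abundant in the striatum, had the highest mean density of all 39 genes, with 101 and 116 CPM per kb, although Neurod6 was above it in replicate 1. Its 270 and 876 footprints, or 145 and 166 CPM, gave a ratio of 0.077 (exact binomial adjusted p = 0.724). Pbx3, the partner of Meis and Hox proteins, had 36.4 and 46.0 CPM at 0.21, and -0.12 on its highest transcript, and was not called.

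**Figure D4:**
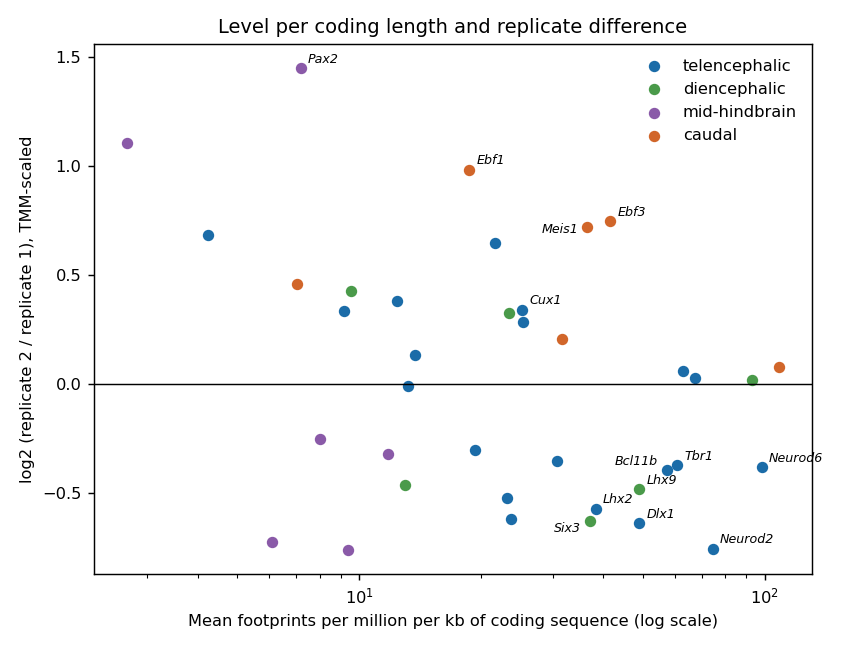
Each point is 1 of the 38 tested genes, placed by its mean CPM per kb of coding sequence (log scale) and its log2 ratio of replicate 2 over replicate 1 after TMM scaling, coloured by region group. The 13 called genes are named. Those below 0 lie between 37.1 (Six3) and 98.4 (Neurod6) CPM per kb, and those above 0 between 7.18 (Pax2) and 41.6 (Ebf3).

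Further regional factors were taken from lists of known territory markers, which were also chosen with earlier results of these data known. Of 16 tested telencephalic factors outside the 39, 3 were called lower in replicate 2 and 3 higher, beside 11.5% and 5.95% of all tested genes. The lower ones included Sp9, a zinc-finger factor of subpallial interneurons (39.1 and 21.7 CPM, log2 ratio -0.96). The higher ones were Pax6 (37.0 and 64.4 CPM, 0.67), Etv1 (38.6 and 80.8 CPM, 0.93) and Neurod1 (50.9 and 79.4 CPM, 0.51), none of them confined to the telencephalon. Of 11 other diencephalic factors, 2 were called, Otp and Irx1, and of 16 other mid-hindbrain factors 2 were called, Gata3 and Foxa1, which is near the 17.4% of all tested genes. All 4 were lower in replicate 2, at log2 ratios of -0.93, -1.13, -0.97 and -1.54. The summed log2 ratios of these lists were -0.056, -0.33 and 0.00086, from the telencephalic to the mid-hindbrain list. The medians of their tested genes were -0.12, -0.41 and -0.38, with 6 of 16, 4 of 11 and 6 of 16 above 0. Zic1 (log2 ratio 0.095) gave 364 and 1196 of the 845 and 2601 footprints of the mid-hindbrain list. Mef2c (-0.0064) gave 1515 and 4640 of the 3304 and 9774 of the telencephalic list.

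Hox genes, which are silent in forebrain and midbrain and mark the hindbrain and spinal cord, were higher in replicate 2. Of 39 listed, 13 had no footprint in either library. Among the 8 that could be tested, 6 were called, all higher in replicate 2, beside 5.95% of all tested genes. Each of the 8 had at most 8 footprints in replicate 1 and passed the filter on the mean count through replicate 2. The filter thus favoured this direction, and the share called is no support for a difference. The sum over the list uses no such filter. The list summed to 21 footprints in replicate 1 and 487 in replicate 2, or 11.2 and 92.6 CPM, a ratio of 8.23 with library totals and 7.54 with TMM. Hoxa5 had 0 and 89 footprints and Hoxb5 had 0 and 88, so with TMM they were at least 9.64-fold and 9.54-fold higher in replicate 2, against a floor of 3 footprints in replicate 1. With library totals these bounds were 10.5-fold and 10.4-fold, against a floor of 1.61 CPM. Hoxb3 had 2 and 38 footprints, Hoxb6 0 and 27, Hoxb8 0 and 20, and Hoxc4 8 and 82. In their sums, the caudal genes and the Hox genes were thus higher in the same library. The part of Hox-expressing tissue in the ratios of the caudal genes was not tested.

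Markers of cell types also differed between the libraries. Over all tested genes 17.4% were called, 5.95% higher and 11.5% lower in replicate 2. All 8 neuron markers had footprints in both libraries, at 5582 and 4342 CPM in sum, and all 8 had ratios below 0 with TMM, of which 6 were called. With library totals Map2 and Rbfox3 lay above 0, at 0.066 and 0.076. Of the called ones Tubb3 was at 1422 and 782 CPM and Stmn2 at 897 and 556 CPM. Cerebellar granule cell markers summed to 305 and 388 CPM, with Zic4 (24.6 and 45.4 CPM) and Neurod1 called higher among 6 tested. Of these 6, 4 had ratios above 0 with TMM. The most abundant, Zic2 (105.5 and 110 CPM) and Cbln1 (78.7 and 80.2 CPM), were not called, at log2 ratios of -0.066 and -0.099. Purkinje cell markers summed to 240.0 and 323 CPM, with Pcp2 (12.9 and 45.2 CPM) called higher among 6, of which 4 lay above 0. Here the most abundant, Calb1 (76.6 and 106 CPM) and Itpr1 (62.7 and 67.7 CPM), were not called, at 0.34 and -0.016. Choroid plexus markers summed to 653 and 354 CPM, with Ttr (582 and 277 CPM) called lower among 7. The other 6 summed to 70.7 and 77.5 CPM, and the list's median log2 ratio was -0.25, so its sum rests on Ttr. The part of these cell types in the ratios of the regional factors was not tested.

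The remaining lists held calls in both directions or few calls, beside 5.95% of all tested genes called higher and 11.5% lower. Oligodendrocyte markers summed to 952 and 1164 CPM. Among them the myelin genes Mbp and Mag were called higher in replicate 2, while the lineage factors Olig1, Olig2 and Sox10 were called lower. Endothelial and pericyte markers summed to 502 and 457 CPM, with Cldn5 and Kcnj8 called lower among 8. Meningeal and fibroblast markers summed to 689 and 641 CPM, with Dcn called higher and Col1a1 and Col1a2 lower among 7. Pituitary markers had 29 and 27 footprints, or 15.5 and 5.13 CPM, lower in replicate 2 at a summed log2 ratio of -1.72 (95% interval -2.54 to -0.92). None of them was abundant enough to be tested, Prl and Tshb were at 0 in both libraries, and Gh had 15 and 0 footprints. Retina and peripheral ganglion markers summed to 20.9 and 31.2 CPM, and the 1 gene tested, Prph, was not called.

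**Figure D5:**
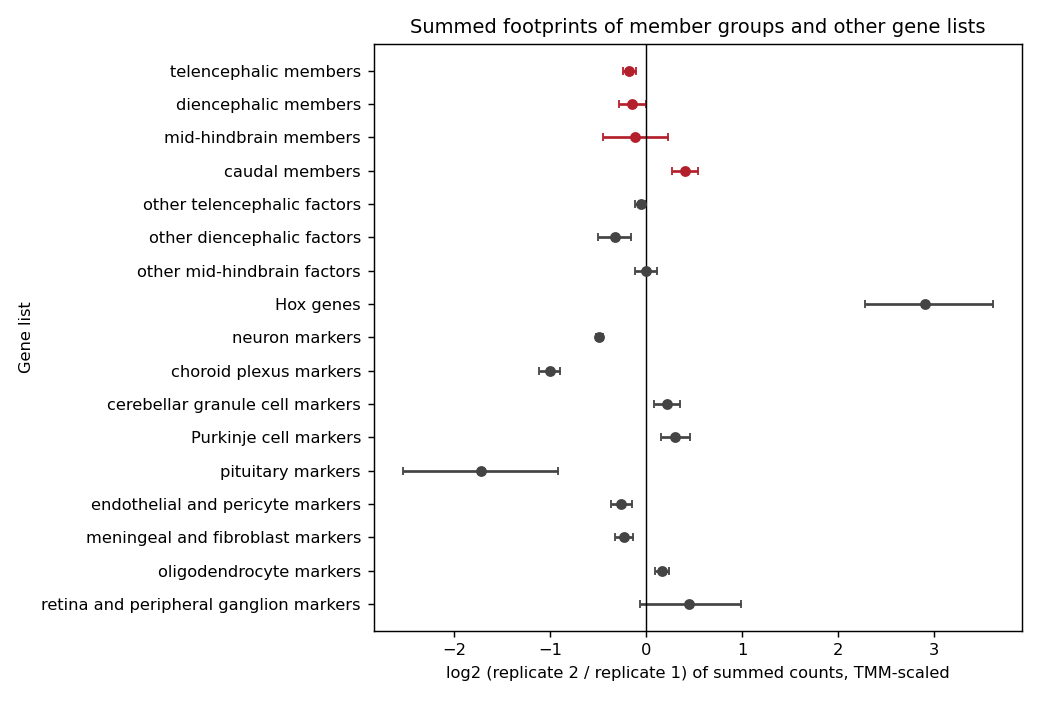
Points give the log2 ratio of replicate 2 over replicate 1 of the summed, TMM-scaled footprints of the region groups (red) and of 13 other gene lists (grey), with exact 95% intervals as bars. The Hox genes lie farthest to the right at 2.91, the caudal genes at 0.41, the neuron markers at -0.49, the choroid plexus markers, whose sum is mostly Ttr, at -1.01, and the pituitary markers, with few footprints, farthest to the left at -1.72.

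The 39 genes were annotated with 246 transcripts, of which 244 had a footprint. Protein-coding transcripts took 87.8% and 85.9% of their footprints, beside 76.3% and 74.8% over all genes. Only 6 genes had 1 annotated transcript: Fezf2, Neurod2, Neurod6, En1, En2 and Phox2a. In the others the counts were often spread almost evenly, as in Ebf3, where the highest of 4 transcripts took 22.4% and 26.8%, so they are not read as isoform usage. In Pbx3 and Meis1, 50.0% and 53.1% of the footprints lay on coding transcripts. Use of the strand in counting is not given in the sources used here, and several of these genes have an antisense partner in the table. Six3os1 had 11 and 30 footprints beside 85 and 168 of Six3, Dlx1as had 17 and 52 beside 83 and 163 of Dlx1, and Dlx6os1 had 21 and 68 beside 17 and 69 of Dlx6. Whether reads of such partners were kept apart from those of the gene is not known, and the values of Six3, Dlx1 and Dlx6 are uncertain for that reason. Emx2os and Otx2os1 had at most 4 footprints in a library.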

How the data were processed

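The authors deposited 1 table of whole-number footprint counts per transcript, not normalized, with 1 column for each of the 2 replicates. Per the labels' protocols, fragments of 25 to 35 nucleotides were selected after RNase I digestion of polysomes. The submitters' processing notes name Trimmomatic 0.36, Bowtie2 2.2.6, SAMtools and build GRCm38.p4. The annotation release, the strand setting and the handling of duplicate or multiply matching fragments are not given in the sources used here. Fragments shared by transcripts of a gene, by paralogues or by overlapping genes may therefore be split or counted more than once. Matched RNA levels were not analysed here, and the values are footprint levels, not translational efficiencies.

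Transcript counts were summed per gene. TMM factors (edgeR 4.0.16 in R 4.3.3) used the genes that averaged at least 10 counts. Each of these was compared between the libraries with a two-sided exact binomial test (SciPy 1.17.1), adjusted by Benjamini-Hochberg over 16427 genes. With a single group there is no contrast for edgeR's quasi-likelihood test. Log2 ratios of single genes used a prior of 0.5 CPM, which shrinks the ratios of scarce genes. The procedure was tested on simulated counts with counting error only, which cannot give its error rate in libraries that differ by more than that. Alternatives were library totals, DESeq2 1.42.0 size factors, protein-coding transcripts alone, the highest transcript, no count minimum or one of 50, removal of a lowess trend with footprint density (span 0.3), edgeR's exact test, genes of 1 main territory, and transcript length in place of coding length. The 39 genes, their grouping and the other lists were chosen with earlier results of these data known. All 39 genes are named, with full values for those called, for the 2 of highest density in each group and for those with a mean count under 10. Genes of the other lists are named where they were called or were the 2 most abundant of their list, and Prl, Tshb and Gh for their values at 0, and Map2 and Rbfox3 for their change of sign, after these were seen. Some genes of these lists are not reported here by name.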

Additional observations from a re-analysis of the deposited data

How the results depend on the processing

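No paired analysis was possible because both samples belong to a single group. With DESeq2 size factors, protein-coding transcripts alone, no count minimum, a minimum of 50 or the density trend removed, the number of called genes stayed within 1.5 times that of TMM. The share of all tested genes called moved more. It was 9.75% with no count minimum, beside 13 of 39 genes here, and 26.5% with a minimum of 50, beside 13 of 25. With library totals 3 genes were called lower in replicate 2, beside 7.47% of all tested genes. With the highest transcript 5 were called (3 higher, 2 lower, beside 9.41% of all genes), and with edgeR's exact test 0 in either direction, with 4 at an unadjusted p under 0.05 (10.5%, beside 4.38% of all tested genes). The telencephalic log2 ratio was -0.034 (median) and -0.049 (summed) with library totals, 0.023 and -0.25 with the highest transcript, -0.37 and -0.35 with the genes of 1 main territory, and -0.34 (median) with a minimum of 50. The diencephalic one was -0.50 (median) and -0.48 (summed) with the highest transcript, and 0.017 (median) and -0.089 (summed) with the genes of 1 main territory. The caudal one was 0.61 (summed) with the highest transcript, 0.72 (summed) with the genes of 1 main territory and 0.75 (median) with a minimum of 50, under which the mid-hindbrain group gave no value. The cause of these shifts was not tested. Protein-coding transcripts alone gave 1485, 364 and 71.8 CPM for the telencephalic, diencephalic and mid-hindbrain groups, and the highest transcripts gave 1107, 118, 78.2 and, for the caudal group, 149 CPM of their own smaller totals. Genes of 1 main territory summed to 678, 238 and 138 CPM in the telencephalic, diencephalic and caudal groups, because fewer genes were summed. The telencephalic to mid-hindbrain ratio was 20.7, 14.2 and 12.5 under these alternatives in turn. Per kb of the longest transcript the group medians were 9.50, 9.86, 2.06 and 10.6 CPM, from the telencephalic to the caudal group, because transcripts are longer than coding sequences. Leaving out either replicate gave 1232 to 1275 CPM for the telencephalic, 309.8 to 314 for the diencephalic, 54.1 to 54.5 for the mid-hindbrain and 301 to 435 for the caudal group. The depth of replicate 1 leaves wide intervals for genes with few footprints there, such as Pax2, Lmx1b and Phox2a.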
